A study of Schizosaccharomyces pombe
Saccharomyces cerevisiae with 16 samples.

Results

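The 34 genes described here encode the mRNA decay machinery of budding yeast, the proteins that shorten, uncap and degrade messenger RNA, and the RNA-binding protein Pub1. They were chosen by their systematic IDs. Those of known decay machines were 8 decapping genes, 2 genes of 5′-3′ exonucleases, 8 of the CCR4-NOT deadenylase and 2 of the PAN2-PAN3 deadenylase. A further 6 belonged to the exosome, 4 to the SKI complex and 3 to nonsense-mediated decay (NMD). PUB1 was listed as a group of its own. All 34 were listed among the 6859 genes of the newly synthesized RNA table and the 6805 of the total RNA table, and all 34 passed the filter on low counts in both. The files name 20 of them; the other 14 are given by systematic ID with the role stated in the deposited description.

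Saccharomyces cerevisiae of mating type alpha carried an auxin-inducible degron, a 3V5-IAA7 tag, on either Med14 or Med17, subunits of the Mediator complex that connects transcription activators with RNA polymerase II. Both strains also expressed the rice F-box protein OsTIR1 from the GPD1 promoter, so that auxin directs the tagged subunit to degradation, and both carried the marker alleles ura3Δ0, trp1Δ63, met15Δ0, lys2Δ0, leu2Δ0, his3Δ200 and ade2Δ::hisG. Each strain was given 500 µM auxin (3-indole acetic acid) or only its carrier DMSO for 30 min, and every culture then took up 5 mM 4-thiouracil (4tU), a uracil analogue built into RNA as it is made, for 6 min. RNA purified by its 4tU is called newly synthesized RNA here, and the unselected RNA total RNA. The strains are called Med14 and Med17 cells. The 2 strains, 2 treatments and 2 kinds of RNA made 8 groups with 2 biological replicates each, 16 libraries in all. The labels of replicate 2 of newly synthesized RNA in the Med14 strain, DMSO and auxin, carry a second mark (2). Its meaning is not stated. DMSO cultures hold the same degron and OsTIR1 as auxin cultures, whether a strain is a single clone is not stated, and auxin given to cells without a degron was not analysed here.

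Most yeast mRNAs are degraded from both ends after their poly(A) tail has been shortened. PAN2-PAN3 and CCR4-NOT remove the tail. The Dcp1-Dcp2 enzyme, helped by Pat1, the Lsm1 ring and other activators, then takes off the 5′ cap, and Xrn1 digests the body of the RNA. The cytoplasmic exosome, fed by the SKI complex, degrades RNA from the 3′ end, and the NMD factors direct messages with a premature stop codon into decapping. Yeast cells are known to adjust mRNA synthesis and decay to each other, which is why the decay genes are of interest when transcription is perturbed.

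Raw totals were 3.83 to 13.96 M counts in the libraries of newly synthesized RNA and 3.30 to 8.84 M in those of total RNA. The alpha-specific genes MF(ALPHA)1 and STE3 were read at 132 to 27188 counts in every library, while MET17, whose locus is the deleted MET15, was at 0 to 2 counts. Values are the authors' normalized counts, which are raw counts times a single constant per library. Log2 fold changes are on that scale (called the authors' scale) unless the TMM scale is named. TMM centres each library on the bulk of its genes and so shows how a gene moved relative to other genes: it shifted the median of all genes with auxin in newly synthesized RNA from -1.86 to 0.022 in Med14 cells and from -2.71 to -0.043 in Med17 cells, and in total RNA from -0.76 to -0.061 and from -1.38 to -0.16. Whether the authors' constants account for the number of cells is not stated, so fewer cells and less RNA per cell cannot be told apart here.

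In DMSO the decay genes were expressed above the typical gene. Per kilobase of transcript, their median level in the Med14 strain was 2071 normalized counts in newly synthesized RNA, against 887 for the median protein-coding gene, and 31 of the 34 were above that gene. In total RNA their median was 331 per kilobase, against 152, with 30 of the 34 above. PUB1, which encodes a poly(A)+ RNA-binding protein needed for the stability of many mRNAs, had the highest level per kilobase (8139 in newly synthesized and 2242 in total RNA), and LSM1, a subunit of the Lsm1-7 ring that promotes decapping, followed in newly synthesized RNA with 5101. UPF3, an NMD factor, had the lowest (388 and 76.3). The next lowest in both was YGR134W, a CCR4-NOT subunit, with 610 and 87.7 per kilobase. With auxin the members' level per kilobase in newly synthesized RNA had a median percentile of 80.8 among protein-coding genes in Med14 cells and 81.6 in Med17 cells, against 76.7 and 74.4 in DMSO.

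**Figure D1:**
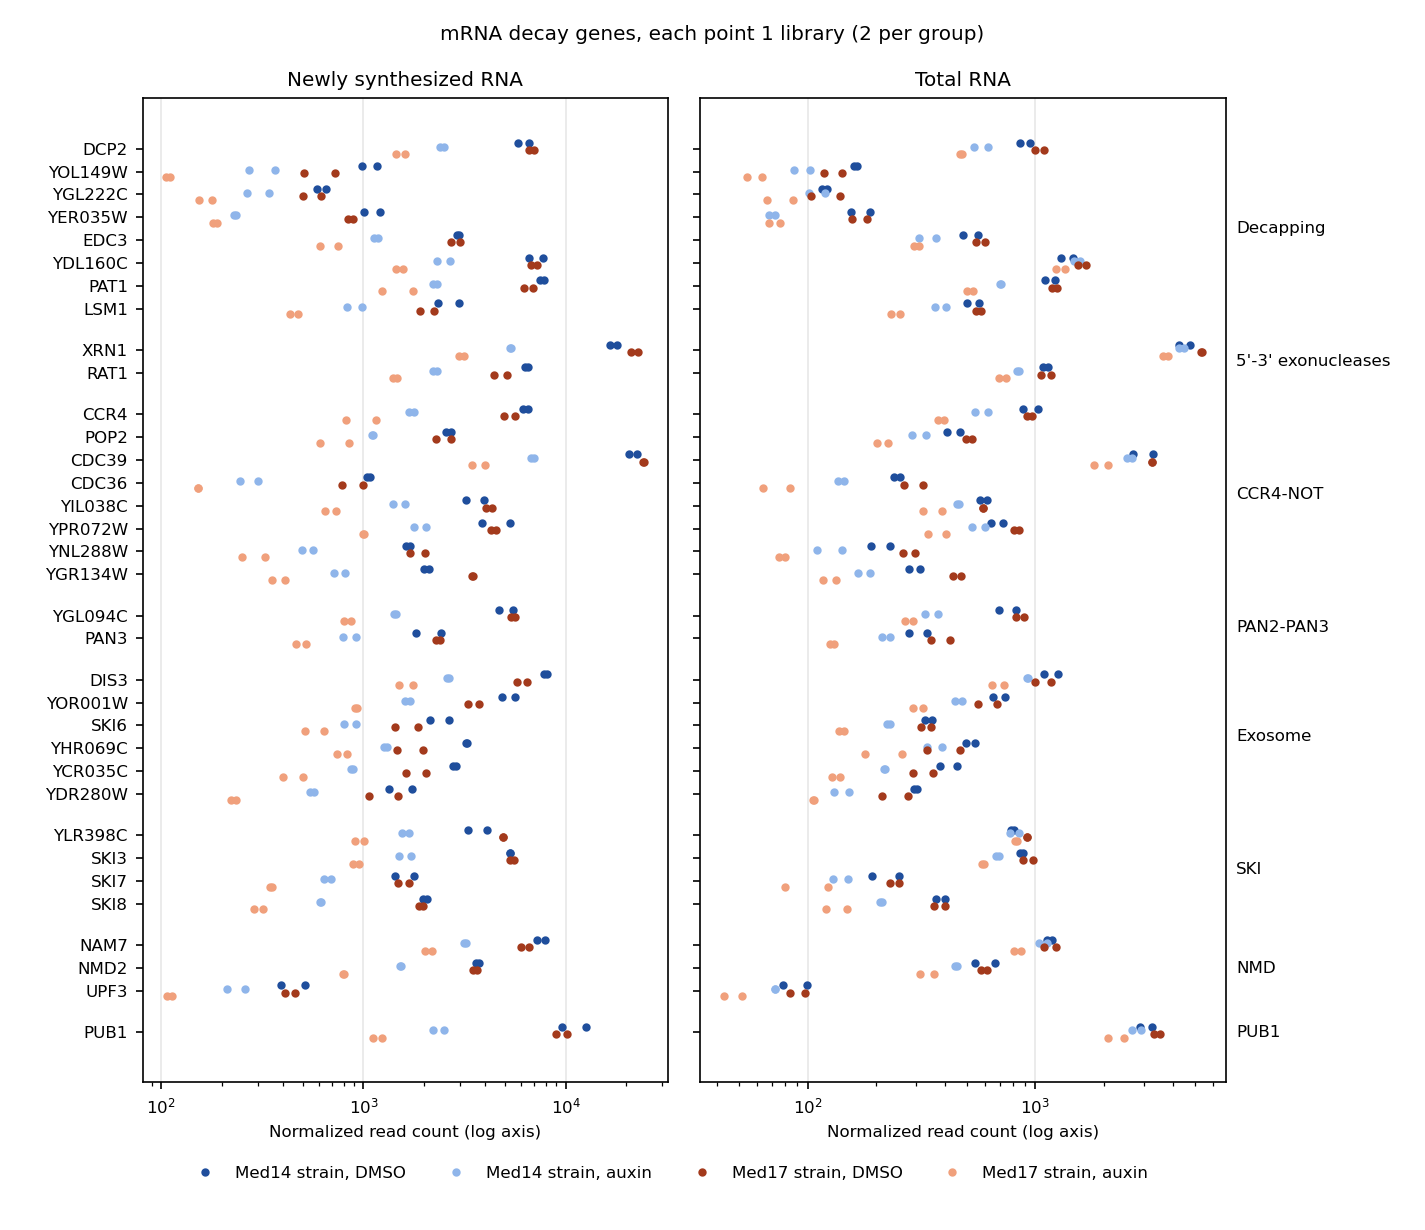
Normalized read counts (log axis) of the 34 decay genes in newly synthesized RNA (left) and total RNA (right), with genes in rows grouped by machine and each point a single library, 2 per group. In newly synthesized RNA the auxin points lie to the left of the DMSO points of the same strain for each gene, while in total RNA the points of YDL160C, YLR398C and XRN1 lie close together.

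Auxin was followed by lower newly synthesized RNA of the whole decay machinery on the authors' scale. All 34 genes were called lower in Med14 cells and all 34 in Med17 cells (edgeR quasi-likelihood test, Benjamini-Hochberg adjusted p under 0.05 over all genes tested), where 94.2% and 95.0% of all genes tested were. None was called higher, against 0.560% and 1.70%. The members kept a median of 35.1% of their DMSO level in the Med14 strain, from 20.9% for YER035W to 52.4% for UPF3. In the Med17 strain they kept a median of 21.7%, from 11.01% for YGR134W to 45.6% for YHR069C. Their median log2 fold changes were -1.51 and -2.21, beside -1.86 and -2.71 over all genes tested, and the 2 replicate numbers gave -1.50 and -1.54 in Med14 cells and -2.22 and -2.20 in Med17 cells. On the TMM scale these medians were positive, 0.36 and 0.44. There, 18 members were called higher and 2 lower in the Med14 strain, against 24.9% higher and 24.3% lower over all genes tested, and 20 were called higher and 2 lower in the Med17 strain, against 28.5% and 30.3%.

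Total RNA fell less. In the Med14 strain 25 members were called lower and none higher (75.1% and 1.62% of all genes tested), with a median log2 fold change of -0.51 (all genes -0.76) and a median of 70.2% left. The members' median there was -0.37 in libraries with replicate number 1 and -0.64 in those with number 2, and the Med17 medians were -1.12 and -0.97. In the Med17 strain 33 were called lower and none higher (87.4% and 2.42% of all genes tested), with a median of -1.14 (all genes -1.38) and 45.1% left. Of the 34 members, 6 kept at least 90% of their total RNA in the Med14 strain (YDL160C, YLR398C, XRN1, NAM7, YGL222C and PUB1) and none did in the Med17 strain. The share of all genes that kept at least 90% was not counted. The upper quartile of log2 fold changes over all genes tested was -0.43 in Med14 and -0.86 in Med17 cells. No member was higher at an unadjusted p under 0.05 in edgeR in any of these 4 auxin comparisons, and DESeq2 called none higher. On the TMM scale 12 members were called higher and 3 lower in the Med14 strain (18.7% and 19.1% of all genes tested) and 13 higher and 5 lower in the Med17 strain (26.1% and 34%). Fewer than 12 members were called higher on the TMM scale in the Med14 strain without DMSO replicate 1 or without auxin replicate 2. Shares of all genes called in those fits are not given here.

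**Figure D2:**
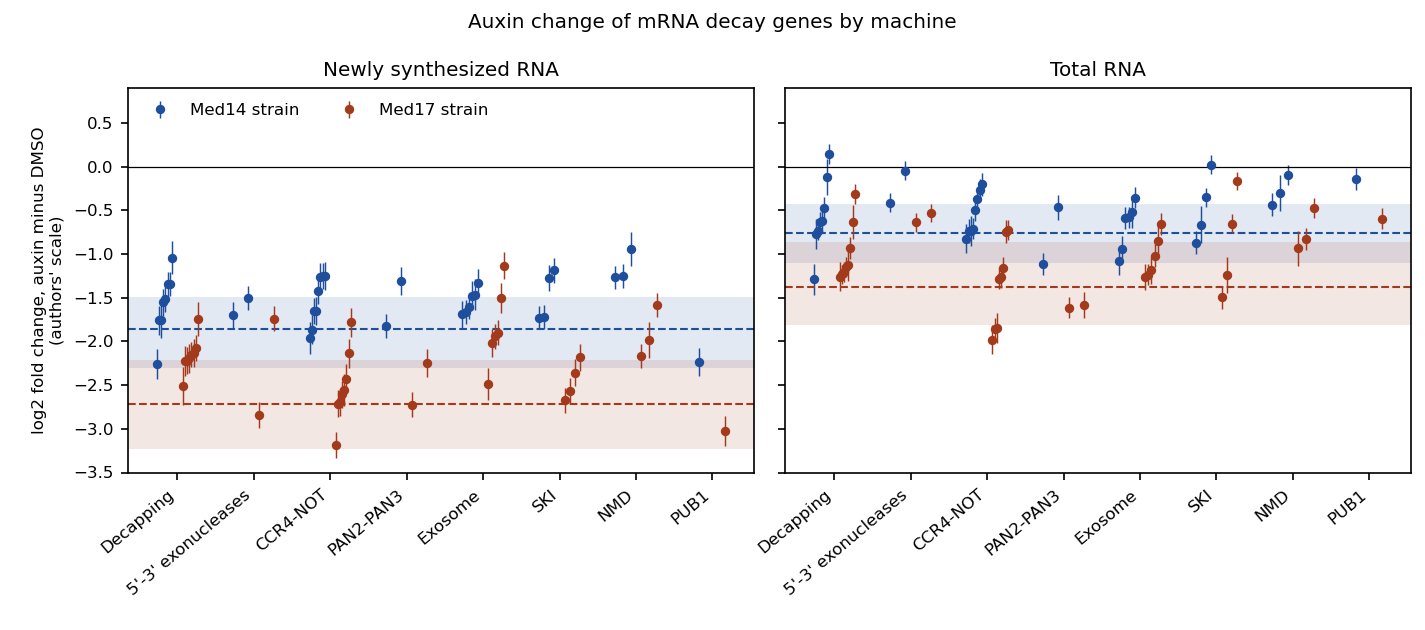
Log2 fold change with auxin (authors' scale, bars SE) of each decay gene, by machine on the x axis, in newly synthesized RNA (left) and total RNA (right), for the Med14 strain (blue) and the Med17 strain (red). Dashed lines and bands give the median and the quartiles of all genes tested; the members' medians, -1.51 and -2.21 for new and -0.51 and -1.14 for total RNA, lie above the dashed lines.

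The 8 decapping genes were all called lower in newly synthesized RNA of both strains (94.2% and 95.0% of all genes tested). Their medians were -1.53 and -2.17. DCP2 (chromosome XIV, 402652 to 405564, sacCer3), the catalytic subunit of the decapping enzyme, had 5833 and 6598 in DMSO and 2400.4 and 2510.2 with auxin in Med14 cells, and 6955 and 6589 in DMSO and 1611 and 1441 with auxin in Med17 cells. Auxin and DMSO libraries did not overlap. The log2 fold changes were -1.34 (SE 0.139, edgeR adjusted p = 3.97e-08) and -2.15 (SE 0.143, edgeR adjusted p = 5.12e-11), and 0.53 and 0.50 on the TMM scale. In total RNA DCP2 went from 852 and 952 to 621 and 538 and from 1094 and 996 to 477 and 465, log2 fold changes of -0.64 and -1.15 and close to the bulk of genes on the TMM scale (0.055 and 0.073).

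YER035W and YGL222C, RNA-binding proteins that activate decapping directly, lay at opposite ends of the members in the Med14 strain. Newly synthesized RNA of YER035W (chromosome V, 222639 to 223076) was at 1002 and 1212 in DMSO and 230.0 and 233 with auxin, which was the lowest fold change of all 34 members in that strain, -2.26 (SE 0.171, edgeR adjusted p = 8.61e-10). YGL222C (chromosome VII, 80659 to 81186) was at 589 and 654 in DMSO and 264 and 342 with auxin, -1.04 (SE 0.191, edgeR adjusted p = 4.73e-05), the second highest of the members. Relative to the bulk of genes YER035W was called lower (-0.39) and YGL222C higher (0.82) in the Med14 strain. Both were called higher on the TMM scale in the Med17 strain (0.43 and 0.91). In the Med17 strain YER035W was at 883 and 838 in DMSO and 188 and 181 with auxin and YGL222C at 614 and 501 in DMSO and 179 and 154 with auxin, a log2 fold change of -1.74 for the latter. In total RNA of the Med14 strain YER035W went from 187 and 155 to 71.8 and 68.1 (-1.29, SE 0.18, edgeR adjusted p = 8.73e-05), while YGL222C had 116 and 122 in DMSO and 101 and 119.5 with auxin, groups that overlapped. A test of one gene against the other was not run.

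YDL160C (chromosome IV, 170410 to 171930), a cytoplasmic DEAD-box helicase that stimulates decapping, had lower newly synthesized RNA in both strains and total RNA near its DMSO level in the Med14 strain. Newly synthesized RNA was at 6569 and 7737 in DMSO and 2322 and 2686 with auxin in Med14 cells and at 7217 and 6771 in DMSO and 1563 and 1443 with auxin in Med17 cells, 35.0% and 21.5% of DMSO. Total RNA of the Med14 strain was at 1295 and 1457 in DMSO and 1473 and 1569 with auxin, the highest fold change of the 34 members (0.14, SE 0.116, edgeR adjusted p = 0.267; 0.84 on the TMM scale). Med17 libraries were at 1665 and 1542 in DMSO and 1344 and 1238 with auxin, -0.31 (SE 0.115, edgeR adjusted p = 0.0217) on the authors' scale but 0.91 on the TMM scale. That call on the authors' scale did not hold without DMSO replicate 1 (-0.26) or auxin replicate 2 (-0.25).

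The remaining decapping genes fell in newly synthesized RNA as well. YOL149W (chromosome XV, 44938 to 45633), the Dcp1 subunit of the enzyme, was at 982 and 1171 in DMSO and 273 and 367 with auxin in newly synthesized RNA of the Med14 strain and at 725 and 510.3 in DMSO and 106 and 111 with auxin in the Med17 strain, where its fold change was the lowest of the group, -2.50 (SE 0.218, edgeR adjusted p = 2.28e-09). EDC3, an enhancer of decapping, PAT1, an activator that bridges deadenylation and decapping, and LSM1 kept 39.4%, 29.6% and 34.1% of their newly synthesized RNA in Med14 cells and 23.8%, 22.8% and 21.9% in Med17 cells. Their total RNA was left at 64.9%, 60.2% and 72.2% in Med14 cells and at 52.3%, 42.6% and 43.4% in Med17 cells.

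XRN1 (chromosome VII, 175527 to 180113) encodes the cytoplasmic 5′-3′ exonuclease and had the most total RNA counts of the 34 genes. Its newly synthesized RNA was at 16554 and 18024 in DMSO and 5309 and 5346 with auxin in Med14 cells and at 20956 and 22709.8 in DMSO and 3134 and 2969 with auxin in Med17 cells. It fell in both, with log2 fold changes of -1.70 (SE 0.145, edgeR adjusted p = 3.56e-09) and -2.84 (SE 0.151, edgeR adjusted p = 4.41e-12), values close to the bulk of genes (0.17 and -0.19 on the TMM scale, neither called). Its total RNA hardly differed between treatments in the Med14 strain, 4274 and 4769 in DMSO and 4263 and 4498 with auxin, with overlapping groups (-0.05, SE 0.107, edgeR adjusted p = 0.703). Total RNA in Med17 cells was at 5358 and 5364 in DMSO and 3813 and 3619.9 with auxin and was called lower (-0.53, SE 0.107, edgeR adjusted p = 0.000487). Relative to the bulk of genes, XRN1 total RNA was called higher in both strains (0.65 and 0.69). RAT1, the nuclear 5′-3′ exonuclease, kept 35.3% and 30.0% of its newly synthesized RNA and 75.3% and 64.2% of its total RNA in the Med14 and Med17 strains.

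Genes of the deadenylases also fell, as did most genes tested. All 8 CCR4-NOT genes were called lower in newly synthesized RNA of both strains (94.2% and 95.0% of all genes tested). Their medians were -1.54 in Med14 cells and -2.58 in Med17 cells. In total RNA 6 were called lower in Med14 cells and all 8 in Med17 cells (75.1% and 87.4% of all genes tested). CCR4 (chromosome I, 110846 to 113359), a deadenylase subunit, was at 6164 and 6482 in DMSO and 1788 and 1685 with auxin in newly synthesized RNA of the Med14 strain and at 5635 and 4964 in DMSO and 1155 and 817 with auxin in the Med17 strain. These were log2 fold changes of -1.86 (SE 0.162, edgeR adjusted p = 4.42e-09) and -2.43 (SE 0.166, edgeR adjusted p = 7.84e-11), near the bulk of genes (0.0051 and 0.21 on the TMM scale). Its total RNA changed by -0.71 and -1.28, both called lower. POP2, the other deadenylase subunit, was at the upper end of the complex in both strains, with log2 fold changes of -1.25 and -1.78, and was called higher on the TMM scale (0.62 and 0.86).

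At the lower end of the complex stood CDC36 in Med14 cells and YGR134W in Med17 cells. CDC36 (chromosome IV, 164290 to 164865), a NOT subunit, was at 1077 and 1044 in DMSO and 244 and 301 with auxin in newly synthesized RNA of the Med14 strain (-1.96, SE 0.18, edgeR adjusted p = 8.7e-09). Its total RNA in the Med17 strain, 321 and 266 in DMSO and 83.5 and 63.9 with auxin, had the lowest fold change of the 34 members, -1.98 (SE 0.165, edgeR adjusted p = 4.4e-07), and was also called lower on the TMM scale (-0.76). The NOT1 scaffold gene CDC39, the longest member with 6.33 kb, kept 31.8% and 15.2% of its newly synthesized RNA and 87.0% and 59.8% of its total RNA. The core subunits YIL038C and YPR072W kept 41.9% and 41.7% of their newly synthesized RNA in Med14 cells and 16.5% and 22.7% in Med17 cells. YNL288W, a further component, kept 31.8% and 15.5%.

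In PAN2-PAN3, the catalytic subunit gene YGL094C (chromosome VII, 331118 to 334465) was at 4672 and 5491 in DMSO and 1449 and 1422 with auxin in newly synthesized RNA of the Med14 strain and at 5618 and 5356 in DMSO and 863 and 799.6 with auxin in the Med17 strain. Log2 fold changes were -1.82 (SE 0.14, edgeR adjusted p = 1.01e-09) and -2.72 (SE 0.145, edgeR adjusted p = 4.41e-12). It was among the 2 members whose total RNA fell most in the Med14 strain, from 691 and 823 to 373 and 328 (-1.11, SE 0.126, edgeR adjusted p = 2.77e-05), and it was called lower on the TMM scale as well, in both strains (-0.42 and -0.39). PAN3, the regulatory subunit, kept 40.5% and 21.1% of its newly synthesized RNA and 72.3% and 33.2% of its total RNA.

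The 6 exosome genes were called lower in newly synthesized and in total RNA of both strains on the authors' scale. Medians were -1.54 and -1.92 for newly synthesized and -0.58 and -1.10 for total RNA. Over all genes tested 94.2% and 95.0% were called lower in newly synthesized RNA and 75.1% and 87.4% in total RNA. DIS3 (chromosome XV, 282421 to 285426), the catalytic subunit, was at 8121 and 7847 in DMSO and 2654 and 2596 with auxin in newly synthesized RNA of the Med14 strain and at 6423 and 5747 in DMSO and 1766 and 1494 with auxin in the Med17 strain, -1.60 (SE 0.142, edgeR adjusted p = 5.6e-09) and -1.90 (SE 0.144, edgeR adjusted p = 3.2e-10). On the TMM scale it was called higher in the Med17 strain (0.75) and not in the Med14 strain (0.26, edgeR adjusted p = 0.0505). Total DIS3 RNA of the Med14 strain was called lower (-0.35, SE 0.125, edgeR adjusted p = 0.0223), which did not hold without DMSO replicate 2 (-0.25) or without either auxin library (-0.34 and -0.36). In the Med17 strain the log2 fold change was -0.66 (SE 0.125, edgeR adjusted p = 0.000287).

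The core subunit gene YHR069C (chromosome VIII, 233579 to 234658) stood out among exosome genes in the Med17 strain. Its newly synthesized RNA was at 3212 and 3245 in DMSO and 1311 and 1260.4 with auxin in Med14 cells and at 1972 and 1468 in DMSO and 832 and 738 with auxin in Med17 cells. The log2 fold change in the Med17 strain, -1.13 (SE 0.154, edgeR adjusted p = 1.25e-06), was the highest of the 34 members and lay at the 94.4th percentile of all genes tested. SKI6, another core subunit, was second with -1.50 (SE 0.171, edgeR adjusted p = 1.04e-07). On the TMM scale both were called higher, at 1.52 and 1.15. There, 5 of the 6 exosome genes were called higher in the Med17 strain (28.5% of all genes tested) and 2 of the 6 in the Med14 strain (24.9%). In total RNA of the Med17 strain 1 of the 6 was (26.1%), and YHR069C was not (0.37, edgeR adjusted p = 0.0558). In DMSO 5 of the 6 already had lower newly synthesized RNA in the Med17 than in the Med14 strain on the authors' scale (24.1% of all genes tested). Those DMSO libraries enter the changes with auxin. YDR280W, a core subunit, was at the lower end of the group in the Med17 strain (-2.49, SE 0.184, edgeR adjusted p = 2.31e-10). YCR035C, a core subunit, and YOR001W, the nuclear 3′-5′ exonuclease, kept 31.0% and 31.6% of their newly synthesized RNA in Med14 cells and 24.7% and 26.0% in Med17 cells.

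All 4 SKI genes were called lower in newly synthesized RNA of both strains (94.2% and 95.0% of all genes tested). In total RNA 3 were called lower in each strain (75.1% of all genes tested in Med14 and 87.4% in Med17 cells). The exception in total RNA was the helicase gene YLR398C (chromosome XII, 915156 to 919019). Its newly synthesized RNA was at 4090.0 and 3288 in DMSO and 1687 and 1551 with auxin in Med14 cells and at 4882 and 4911 in DMSO and 1009.9 and 905 with auxin in Med17 cells, -1.19 (SE 0.145, edgeR adjusted p = 3.22e-07) and -2.36 (SE 0.15, edgeR adjusted p = 3.09e-11). Its total RNA was at 785 and 806 in DMSO and 774 and 846 with auxin in the Med14 strain, with overlapping groups, and at 917 and 921 in DMSO and 830.0 and 817 with auxin in the Med17 strain. Neither change was called on the authors' scale (0.03, SE 0.104, edgeR adjusted p = 0.825 and -0.16 (SE 0.103, edgeR adjusted p = 0.161)), and both were called higher on the TMM scale (0.72 and 1.06). SKI3, the scaffold subunit, SKI7, which links the complex to the exosome, and SKI8 kept 30.2%, 41.4% and 30.4% of their newly synthesized RNA in Med14 cells and 16.9%, 22.1% and 15.7% in Med17 cells. SKI8 overlaps the open reading frame YGL214W by 442 bases, which had a mean of 5.25 counts of newly synthesized RNA against 998 for SKI8.

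The 3 NMD genes had newly synthesized RNA changes at percentiles 85.97 to 93.2 of all genes tested in the Med14 strain. On the TMM scale the percentiles in the Med14 strain were 84.5 for NMD2, 91.7 for UPF3 and 85.2 for NAM7. Those in the Med17 strain were 75.4, 81.1 and 89.2. All 3 were called higher on that scale in newly synthesized RNA of both strains (24.9% and 28.5% of all genes tested). In total RNA 1 of the 3 was called higher there in the Med14 strain and 2 in the Med17 strain (18.7% and 26.1%). NAM7 (chromosome XIII, 426712 to 429627), the helicase of the pathway, was at 7248 and 7943 in DMSO and 3222 and 3155 with auxin in newly synthesized RNA of the Med14 strain and at 6596 and 5991 in DMSO and 2181 and 2024 with auxin in the Med17 strain. Its log2 fold changes were -1.25 (SE 0.137, edgeR adjusted p = 8.27e-08) and -1.58 (SE 0.139, edgeR adjusted p = 2.63e-09) on the authors' scale, and 0.62 and 1.07 on the TMM scale. Its total RNA in the Med14 strain was at 1121 and 1181 in DMSO and 1038 and 1120.0 with auxin (-0.09, SE 0.113, edgeR adjusted p = 0.458), and in the Med17 strain its log2 fold change was -0.48 (SE 0.113, edgeR adjusted p = 0.00156). UPF3 (chromosome VII, 634304 to 635467) had 389.6 and 515 in DMSO and 213 and 261 with auxin in newly synthesized RNA of the Med14 strain, the smallest fall of the 34 members (-0.94, SE 0.194, edgeR adjusted p = 0.000163). NMD2, which bridges the other NMD factors, changed by -1.27 and -2.16.

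PUB1 (chromosome XIV, 602907 to 604268) was the member with the widest gap between the 2 kinds of RNA. Its newly synthesized RNA was at 9624 and 12548 in DMSO and 2209 and 2489 with auxin in Med14 cells and at 10122 and 8953 in DMSO and 1229 and 1116 with auxin in Med17 cells, 21.2% and 12.3% of DMSO. The log2 fold changes, -2.24 (SE 0.162, edgeR adjusted p = 5.14e-10) and -3.02 (SE 0.168, edgeR adjusted p = 6.4e-12), were each the second lowest of the 34 members, and both were called lower on the TMM scale too (-0.37 and -0.37). Its total RNA was at 2874 and 3234 in DMSO and 2902 and 2647 with auxin and at 3526 and 3310.3 in DMSO and 2446 and 2086 with auxin, 90.9% and 66.3% of DMSO.

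The change of newly synthesized RNA was then tested against the change of total RNA in a joint fit of the 16 libraries, in which a negative value means a larger fall of newly synthesized RNA. In the Med14 strain 33 members were called negative and none positive, against 79.6% and 0.0165% of all genes tested, with a median of -0.95 (all genes -1.05). In the Med17 strain 32 were called negative and none positive, against 84.1% and 0.281%, with a median of -1.10 (all genes -1.34). The scale of newly synthesized RNA and that of total RNA rest on separate constants of the authors, and on the TMM scale 3 members were negative and 4 positive in Med14 cells and 6 negative and 10 positive in Med17 cells. Over all genes tested these shares were 11.2% and 3.69%, and 16.1% and 14.0%. PUB1 had the widest gap in both strains, -2.10 (SE 0.199, edgeR adjusted p = 7.9e-08) and -2.43 (SE 0.20, edgeR adjusted p = 9.91e-09), and stayed negative on the TMM scale (-0.93 and -1.04). YDL160C was next in the Med14 strain (-1.66, SE 0.175, edgeR adjusted p = 2.92e-07; -0.49 with TMM) and XRN1 in the Med17 strain (-2.31, SE 0.16, edgeR adjusted p = 1.84e-09; -0.93 with TMM).

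The narrowest called gaps were those of SKI7 (-0.61, SE 0.254, edgeR adjusted p = 0.0354) and UPF3 (-0.64, SE 0.281, edgeR adjusted p = 0.0456) in Med14 cells, and of CDC36 (-0.57, SE 0.243, edgeR adjusted p = 0.0363) and POP2 (-0.51, SE 0.215, edgeR adjusted p = 0.0345) in Med17 cells. These 4 were positive on the TMM scale, at 0.56, 0.54, 0.82 and 0.87, and each lost its call in some fits that left out a library. Without DMSO replicate 2 of newly synthesized RNA, the Med14 strain gave -0.45 for SKI7 and -0.42 for UPF3. Without auxin replicate 1 of total RNA, CDC36 was at -0.37, and without auxin replicate 2 of newly synthesized RNA, POP2 was at -0.29.

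**Figure D3:**
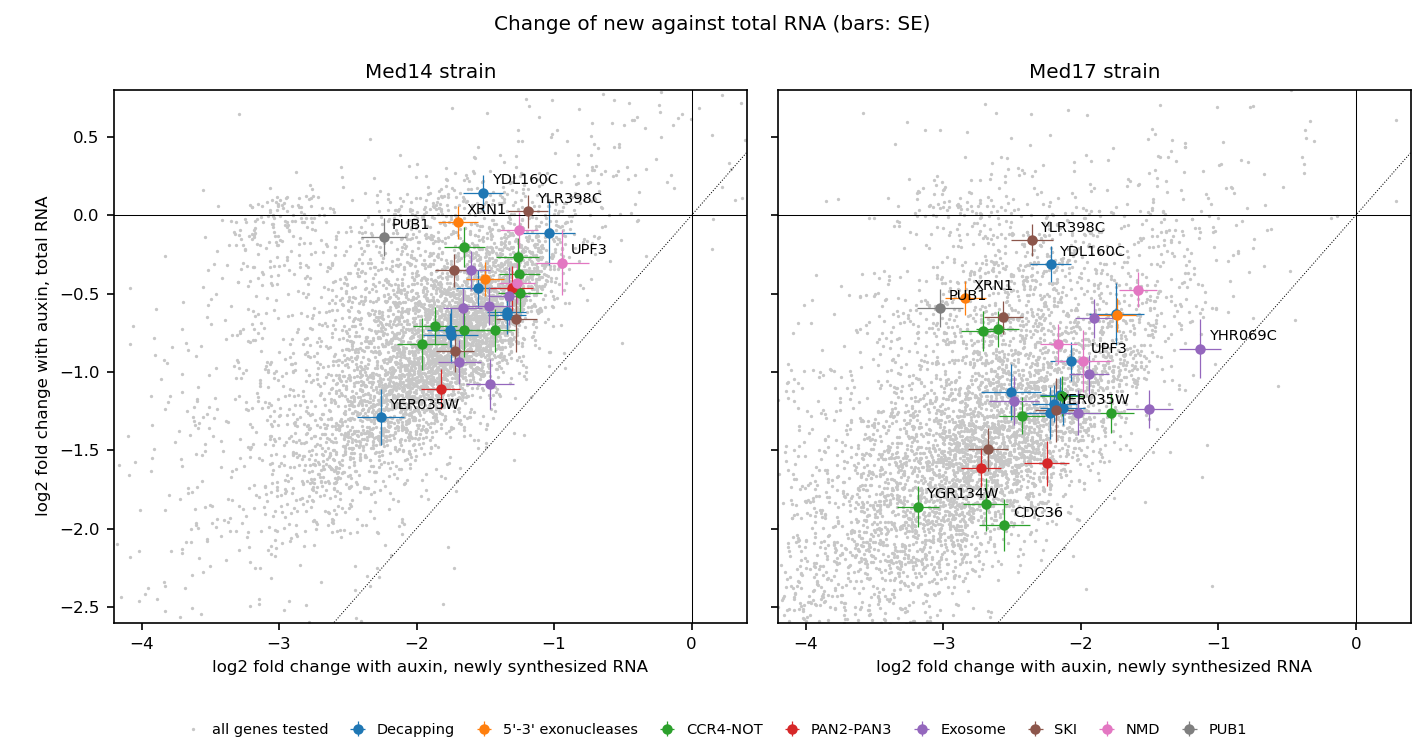
Log2 fold change with auxin (authors' scale, bars SE) of total RNA against that of newly synthesized RNA in the Med14 strain (left) and the Med17 strain (right), with decay genes coloured by machine, all genes tested in grey where they fall inside the axes, and a dotted line of equal change. PUB1, YDL160C, XRN1 and YLR398C lie high above the dotted line, at -0.14, 0.14, -0.05 and 0.03 for total RNA of the Med14 strain.

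The abundance of newly synthesized relative to total RNA in DMSO, on the TMM scale, can be higher for transcripts that are replaced faster. It also went with transcript length over 5626 protein-coding genes, with a Spearman's rho of 0.37 in the Med14 and 0.49 in the Med17 strain. It was called higher than for the bulk of genes for 11 members and lower for 3 in the Med14 strain, against 15.0% and 21.0% of all genes tested, and for 16 and 3 members in the Med17 strain, against 26.9% and 22.5%. PUB1 had the lowest value in both strains, -0.62 (SE 0.107, edgeR adjusted p = 0.000335) and -0.69 (SE 0.107, edgeR adjusted p = 9.43e-05). XRN1 was second lowest in the Med14 strain (-0.54, SE 0.104, edgeR adjusted p = 0.000853) and CDC36 in the Med17 strain (-0.56, SE 0.136, edgeR adjusted p = 0.00338). At the other end were YNL288W (0.52, SE 0.124, edgeR adjusted p = 0.00456) and YOR001W (0.44, SE 0.106, edgeR adjusted p = 0.0042) in Med14 cells and YGR134W (0.77, SE 0.107, edgeR adjusted p = 2.78e-05) and CDC39 (0.74, SE 0.105, edgeR adjusted p = 3.56e-05) in Med17 cells. Each fit that left out 1 DMSO library called fewer than 11 members higher in Med14 cells and fewer than 16 in Med17 cells. Such a fit leaves 1 library in a group, and shares of all genes called in it are not given here.

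Most decay genes fell more in the Med17 than in the Med14 strain on the authors' scale. The difference of the changes, Med14 minus Med17, was called positive in newly synthesized RNA for 25 of the 34 members and negative for none, against 59.6% and 3.28% of all genes tested, and its median was 0.77 (all genes 0.82). In total RNA it was positive for 16 members and negative for none, against 41.3% and 1.23%, with a median of 0.49 (all genes 0.54). The total RNA count was 8 without DMSO replicate 1 of the Med14 strain, 9 without its auxin replicate 1 and 10 without Med17 auxin replicate 2. All 8 CCR4-NOT genes and all 4 SKI genes were called in newly synthesized RNA, and 1 of the 6 exosome genes was, with medians of 0.96, 0.93 and 0.29. A test of one complex against another was not run. On the TMM scale 2 members were positive and 7 negative in newly synthesized RNA, and 2 positive and none negative in total RNA. Over all genes tested 16.8% were positive and 18.0% negative in newly synthesized RNA, and 5.99% and 8.40% in total RNA.

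YGR134W (chromosome VII, 757770 to 761138), the CCR4-NOT subunit, differed most between the strains. Newly synthesized RNA was at 2106 and 2004 in DMSO and 814 and 714 with auxin in Med14 cells and at 3495 and 3429 in DMSO and 408 and 354 with auxin in Med17 cells, so the Med17 strain was higher in DMSO and lower with auxin, with no overlap in either. The fold changes were -1.43 and -3.18, and their difference was 1.76 (SE 0.199, edgeR adjusted p = 4.75e-06). Total RNA followed with 279 and 312 in DMSO and 187 and 167 with auxin in Med14 cells and 473 and 434 in DMSO and 117 and 133 with auxin in Med17 cells, a difference of 1.13 (SE 0.189, edgeR adjusted p = 0.00186). Both differences were also called on the TMM scale (0.98 and 0.60).

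The core subunit gene YIL038C was second in newly synthesized RNA. It was at 3932 and 3226 in DMSO and 1604 and 1396 with auxin in Med14 cells and at 4331 and 4038 in DMSO and 733 and 644 with auxin in Med17 cells, a difference of 1.35 (SE 0.208, edgeR adjusted p = 5.65e-05) that was called on the TMM scale too (0.57). In total RNA CDC36 had the largest difference of the members, 1.16 (SE 0.234, edgeR adjusted p = 0.00376), from 255 and 240.1 to 136 and 145 in Med14 cells and from 321 and 266 to 83.5 and 63.9 in Med17 cells. It was not called on the TMM scale (0.63, edgeR adjusted p = 0.063).

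The smallest called differences were those of POP2 (0.53, SE 0.226, edgeR adjusted p = 0.0495) and CCR4 (0.56, SE 0.223, edgeR adjusted p = 0.0368) in newly synthesized RNA and of YDL160C (0.46, SE 0.163, edgeR adjusted p = 0.0411) and XRN1 (0.48, SE 0.152, edgeR adjusted p = 0.0249) in total RNA. All 4 turned negative on the TMM scale, at -0.24, -0.21, -0.069 and -0.041. Each lost its call in several fits that left out a library. Without auxin replicate 2 of the Med17 strain in the same kind of RNA, the values were 0.31 for POP2, 0.33 for CCR4, 0.40 for YDL160C and 0.45 for XRN1.

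The strains already differed in DMSO, and these are the same DMSO libraries that enter the differences above. In newly synthesized RNA 7 members were called lower in the Med17 strain and 2 higher, against 24.1% and 6.04% of all genes tested, with a median of -0.069 (all genes -0.21; 0.11 for the members on the TMM scale). That median was 0.020 between libraries with replicate number 1 and -0.31 between those with number 2, and it ran from -0.20 to -0.016 when 1 library was left out. The balance of calls turned on the TMM scale: 5 members were lower and 7 higher, against 17.8% and 13.6% of all genes tested, and RAT1 (edgeR adjusted p = 0.0879) and DIS3 (edgeR adjusted p = 0.125) were not called. Of the 7 called lower on the authors' scale, 5 were exosome genes. YHR069C was the lowest, with 3212 and 3245 in Med14 cells and 1972 and 1468 in Med17 cells (-0.91, SE 0.153, edgeR adjusted p = 0.000309; -0.74 with TMM). YOL149W, the Dcp1 subunit, followed with 982 and 1171 and 725 and 510.3 (-0.81, SE 0.201, edgeR adjusted p = 0.00573; -0.64 with TMM). RAT1 was the seventh. Replicate 2 of the Med17 strain was the lower DMSO library for each of the 7 genes. Without it, or without DMSO replicate 2 of the Med14 strain, fewer members were called lower. Shares of all genes called in those fits are not given here. Without either of these libraries the call of YOL149W was lost (-0.57 and -0.67).

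Higher in the Med17 strain in DMSO were YGR134W, with 2106 and 2004 in Med14 cells and 3495 and 3429 in Med17 cells (0.75, SE 0.139, edgeR adjusted p = 0.000645), and YLR398C, with 4090.0 and 3288 and 4882 and 4911 (0.41, SE 0.143, edgeR adjusted p = 0.0382). The YLR398C call did not hold without replicate 2 of Med14 DMSO (0.26), and without either DMSO library of the Med17 strain (0.41 in both). In total RNA YGR134W was the only member called on the authors' scale, higher in the Med17 strain (0.62, SE 0.125, edgeR adjusted p = 0.00597), while 9.69% of all genes tested were higher and 5.83% lower. That call was lost without DMSO replicate 1 of the Med14 strain (0.54). DESeq2 also called YGR134W as the only member there, and on the TMM scale 1 member was higher and 2 were lower, against 8.90% and 9.54% of all genes tested.

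**Figure D4:**
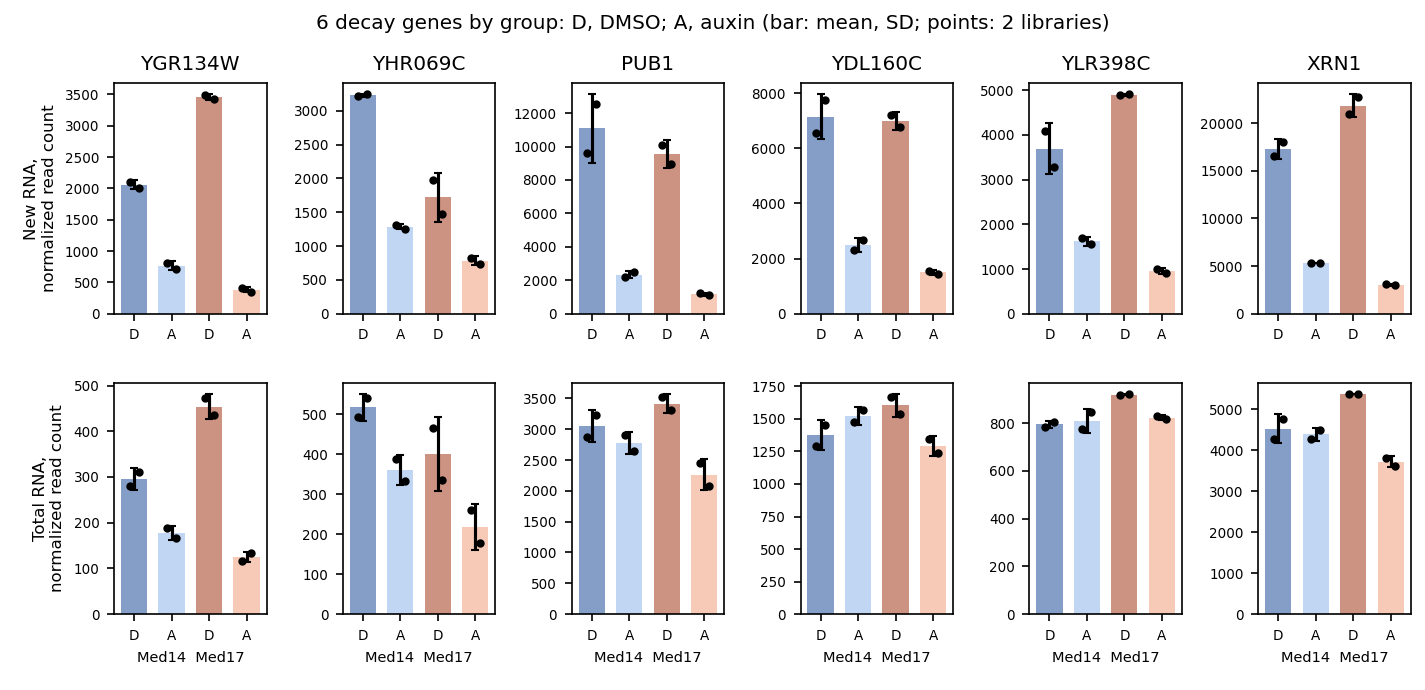
Normalized read counts of 6 decay genes in newly synthesized RNA (top) and total RNA (bottom), by strain and by DMSO (D) or auxin (A); bars are means with SD and points are the 2 libraries. YGR134W was higher in Med17 than in Med14 DMSO libraries in both kinds of RNA, YHR069C lower in newly synthesized RNA, and total RNA of PUB1, YDL160C, YLR398C and XRN1 stayed near its DMSO level in the Med14 strain.

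A wider list of 33 further decay genes, such as the remaining Lsm ring and exosome subunits, the nuclear TRAMP polyadenylation complex and Puf RNA-binding proteins, was examined in the same fits. All 33 were called lower in newly synthesized RNA of both strains on the authors' scale, where 94.2% and 95.0% of all genes tested were, with medians of -1.49 and -2.17 (0.37 and 0.48 on the TMM scale). Their extremes were YER146W, an Lsm ring subunit, at -2.59 and YDL175C, a TRAMP RNA-binding subunit, at -0.70 in Med14 cells, and DCS1, the scavenger decapping enzyme, at -3.68 and YNL299W, a TRAMP poly(A) polymerase, at -0.83 in Med17 cells. In total RNA 25 of the 33 were called lower in Med14 cells and 30 in Med17 cells, and none was called higher in either, against 75.1% and 87.4% lower over all genes tested, shares close to those of the list. In Med17 DMSO libraries 13 of the 33 had lower newly synthesized RNA and none had higher, against 24.1% and 6.04% of all genes tested, with MTR4, the TRAMP helicase, lowest at -0.92. With TMM 9 were lower and 2 higher, against 17.8% and 13.6%.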

How the data were processed

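Newly synthesized (4tU-labelled) and total RNA were sequenced with a stranded kit after ribosomal RNA removal, from cultures mixed with cells of the fission yeast S. pombe before extraction, per the labels' protocols. The submitters' processing notes name bcl2fastq 2.17.1.14 and the build sacCer3. Neither the aligner, the counter nor the strand setting was given in the sources used here, so reads of overlapping genes cannot be told apart. The deposited tables hold raw read counts and, as a signal, normalized counts and these per kilobase of transcript, per the file headers. In each library the normalized value was the raw value times 1 constant, whose origin the sources used here do not give. The Med17 group follows the strain and source fields; the samples' cell line field names a tag on MED14 instead.

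Raw counts of genes kept by filterByExpr were fitted with edgeR 4.0.16 in R 4.3.3 (quasi-likelihood F test, two-sided, Benjamini-Hochberg adjustment over all genes tested), scaled by the authors' constants. Each kind of RNA had a fit of its 8 libraries, and a joint fit held all 16. SE is the absolute log2 fold change divided by the square root of that test's F statistic. Alternatives were TMM, median-of-ratios and total-count scaling, no filter, DESeq2 1.42.0, a replicate block and leaving out each library. The fits were tested on data simulated with 200 changed genes, a dispersion of 0.02 and independent libraries. Changes of 1 log2 unit were recovered for 84% of genes in newly synthesized RNA, 80% in total RNA and 46% in the joint fit. Changes of 2 units were recovered for 100%, 99% and 99%. In the data most genes fell with auxin, so these settings differ from it. Exact tests of 2 against 2 libraries cannot go below p = 0.333, and none was run. Fold changes are named for 1 enzyme of each machine, for the 2 lowest and 2 highest members of each comparison (among those called, for differences and ratios), for the lowest and highest member of each group of at least 3 in newly synthesized RNA, and for the extremes of the wider list; other members are given by levels and counts. Members and lists were chosen with earlier results of these data known. Sequences were not used here.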

Additional observations from a re-analysis of the deposited data

Results flagged for a closer look

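For 8 results the auxin change differed between the Med14 and Med17 strains by the interaction test in edgeR, all with a larger fall in the Med17 strain on the authors' scale. In newly synthesized RNA these were YGR134W (1.76), YIL038C (1.35), CCR4 (0.56) and POP2 (0.53). In total RNA they were CDC36 (1.16), YGR134W (1.13), XRN1 (0.48) and YDL160C (0.46). They were the extremes among the called members, and the median gene differed by 0.82 in newly synthesized and 0.54 in total RNA, so that CCR4, POP2, XRN1 and YDL160C differed by less than the median gene. On the TMM scale the calls of YGR134W in both kinds of RNA and of YIL038C held. YGR134W was also higher in Med17 than in Med14 DMSO libraries, by 0.75 in newly synthesized and 0.62 in total RNA, and these libraries are shared with its differences. Groups of 2 libraries are too small to search for libraries that stand apart.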

How the results depend on the processing

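Of 1010 recomputed values, 800 were the same and 72 reversed. Of the 861 from alternatives other than scaling, 758 were the same and 3 reversed. A gene's fold change was the same if it kept its direction and side of the threshold. A count of calls was the same within a factor of 1.5, and a median within the SD of the 2 replicate medians. TMM scaling, which sets the bulk of genes to no change, left 2, 2, 3 and 5 members called lower with auxin (newly synthesized RNA of Med14 and Med17, then total RNA of Med14 and Med17), with medians of 0.36, 0.44, 0.19 and 0.079. For the strain differences it gave 2 positive calls in each kind of RNA with medians of -0.020 and -0.032, for newly synthesized against total RNA 3 and 6 negative calls with medians of 0.22 and 0.28, and in newly synthesized DMSO RNA a median of 0.11. Median-of-ratios scaling left 2, 2, 2 and 4 called lower (25%, 28.2%, 16.5% and 26.0% of all genes tested), with medians of 0.34, 0.48, 0.24 and 0.20, differences with 1 and 2 positive calls (14.4% and 4.85%) and medians of -0.072 and -0.10, newly synthesized against total RNA with 3 and 7 negative calls (14.3% and 18.7%) and medians of 0.074 and 0.18, and a newly synthesized DMSO median of 0.12. Total-count scaling left 0, 2, 9 and 21 called lower (16.3%, 33.7%, 45.0% and 72.9% of all genes tested), with medians of 0.58, 0.37, -0.16 and -0.62, differences with 9 and 7 positive calls (32.4% and 21.5%) and medians of 0.27 and 0.32, newly synthesized against total RNA with 0 and 0 negative calls (5.12% and 5.47%) and medians of 0.79 and 0.95, and DMSO medians of 0.12 and -0.077 with 4 members lower in newly synthesized RNA (17%).

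Named genes also reversed under TMM. In newly synthesized RNA of the Med14 strain the values were 0.53 for DCP2, 0.17 for XRN1, 0.0051 for CCR4, 0.047 for YGL094C, 0.26 for DIS3, 0.68 for YLR398C, 0.62 for NAM7, 0.82 for YGL222C, 0.93 for UPF3, 0.62 for POP2, 0.18 for YCR035C, 0.54 for YHR069C, 0.14 for SKI3 and 0.60 for NMD2. Those of the Med17 strain were 0.50 for DCP2, 0.21 for CCR4, 0.75 for DIS3, 0.29 for YLR398C, 1.07 for NAM7, 1.15 for SKI6, 1.52 for YHR069C, 0.16 for YOL149W, 0.91 for YGL222C, 0.86 for POP2, 0.17 for YDR280W, 0.47 for SKI7 and 0.49 for NMD2. Total RNA gave 0.055 for DCP2, 0.65 for XRN1, 0.34 for DIS3 and 0.60 for NAM7 in Med14 cells and 0.073 for DCP2, 0.69 for XRN1, 0.56 for DIS3, 1.06 for YLR398C, 0.75 for NAM7 and 0.91 for YDL160C in Med17 cells. The strain differences became -0.24 for POP2 and -0.21 for CCR4 in newly synthesized and -0.069 for YDL160C and -0.041 for XRN1 in total RNA, and newly synthesized against total RNA became 0.54 for UPF3 and 0.56 for SKI7 in the Med14 and 0.82 for CDC36 and 0.87 for POP2 in the Med17 strain.

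Leaving out 1 library at a time, medians ranged from -1.60 to -1.47 and from -2.27 to -2.15 for newly synthesized RNA. For total RNA they ranged from -0.59 to -0.44 in the Med14 and from -1.16 to -1.01 in the Med17 strain. Those of the strain differences ranged from 0.65 to 0.87 in newly synthesized and from 0.39 to 0.55 in total RNA. Newly synthesized against total RNA ranged from -1.05 to -0.85 and from -1.19 to -1.003, and total DMSO RNA from -0.0068 to 0.14. Calls ranged from 1 to 6 (lower) for newly synthesized and 0 to 1 (higher) for total DMSO RNA, 8 to 18 for the total difference, 7 to 11 for total RNA of the Med14 strain with TMM, and 0 to 9 and 10 to 13 for the ratio. A pair of total RNA values of the Med14 strain that were not called crossed 0, XRN1 from -0.12 to 0.035 and YLR398C from -0.039 to 0.089. DESeq2 lost the calls of POP2 (0.53), UPF3 (-0.64) and CDC36 (-0.57). With the replicate block, newly synthesized RNA had 34 and 34 members lower and total RNA 25 and 33, and the strain differences 24 and 13. YDL160C (0.46) and UPF3 (-0.64) lost their calls with the block, and without the filter the same 2 did. Shares of all genes called with this block, or with the crossed block below, are not given here. The labels number the replicates but do not say that a number marks a shared culture, batch or day, so a pairing could not be settled. Deviations of auxin and DMSO libraries with the same number correlated at 0.44, 0.19, 0.11 and 0.26, and those of newly synthesized and total RNA, which bear on the joint fit, at 0.18 and 0.46 (auxin and DMSO, Med14) and 0.076 and 0.60 (Med17). Between DMSO strains they correlated at -0.23 and -0.33, and a block with crossed numbers, added after the data were seen, gave 9 lower and 3 higher in newly synthesized and 1 lower and 1 higher in total RNA. Depth was 3.30 M counts or more, and 2 replicates a group limit the precision.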

Other observations

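The ratio of newly synthesized to total RNA of the Med14 strain in DMSO and the change of total RNA in the Med17 strain share no library. Over the 34 members their Spearman's rho was -0.40, and over 5453 protein-coding genes it was -0.22. With the strains swapped, the ratio of the Med17 strain and the total RNA change of the Med14 strain gave -0.20 over the members and -0.11 over the protein-coding genes. Genes are not independent replicates, so these are descriptions of the libraries. The ratio also went with transcript length, with a rho of 0.19 in the Med14 strain and 0.51 in the Med17 strain over the members and 0.37 and 0.49 over 5626 protein-coding genes, and the part of length in the first relation was not tested.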
